A study of Mus musculus with 6 samples.

Results

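Skin of wild type mouse pups was profiled on 3 Affymetrix arrays, and these 3 of the 6 arrays in the series are described here. They were chosen by their titles, which give the genotype, the tissue and 5 dpn (taken here as postnatal day 5), and the labels add a C57BL/6 background, male sex and name no treatment. The design text calls the 3 samples independent. The other 3 arrays, of skin with a targeted Hoxc13 allele, are not compared here. The body site, the litters and whether RNA of several animals was pooled are not given in the sources used here.

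Mouse pups of this age grow the hairs of the first coat, so their follicles hold dividing matrix cells, a hardening hair shaft and the sheaths around it. The shaft is built of hair keratins, which form filaments, and of keratin-associated proteins, which embed and cross-link them. The inner root sheath moulds the shaft and is hardened by trichohyalin, while the epidermis between the follicles makes its barrier from other keratins and cornified envelope proteins. Dermal collagen, fat, a thin sheet of skeletal muscle and resident immune cells lie beneath.

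Each array gave deposited log2 RMA values for 16331 probe sets, one for each gene, after 64 control probe sets were set aside. A gene symbol was known for 15644 of them. The median was 7.405 on every array, and the values ran from 2.98 to 14.33. The sorted values of all 6 arrays agreed within 0.001 at 99.4% of ranks, so a value at the top of the scale is nearly a rank. Values of different genes also depend on how well their probes bind, and the order of genes is therefore rough. Precision is limited by having 3 arrays. Where a mean stands alone below, its SD over the arrays (n = 3) was at most 0.29.

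The sex given in the labels was not borne out by the arrays. The X-inactivating RNA Xist read 11.31, 11.15 and 11.27 in replicates 1, 2 and 3. The 5 measured Y-linked genes were low on every array, with means of 4.57 for Usp9y, 3.88 for Sry, 3.75 for Zfy2, 3.47 for Uty and 3.03 for Eif2s3y. All 3 arrays were alike in this.

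Olfactory receptors, which are hardly expressed outside the nose, gave the level read with little transcript. The 95th percentile of their 35 probe sets was 5.60, 5.58 and 5.52 in replicates 1, 2 and 3, and is called the reference level here. Of the 16331 genes, 11914 (73%) lay above it on all 3 arrays. So did 1 olfactory receptor, Olfr15 (mean 6.03), and 4 of 21 genes of other tissues, of which albumin (Alb, 6.86) and insulin (Ins2, 6.85) were highest. A value below about 6.86 therefore does not show that a gene was expressed. The defining markers of skin were far above this level, with means of 12.85 for Krt5 and 12.56 for Krt14 (basal epidermis), 13.99 for Krt10 (suprabasal epidermis) and 13.20 for Col1a1 (dermis). In bulk tissue, more cells of a type and more RNA per cell cannot be told apart. Counts of list members above the reference level are to be read beside the 73% of all genes. They do not by themselves show expression.

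The brightest 1% of the transcriptome, 163 genes with means of 12.26 or more, had collagen, ribosomal protein, hair follicle and epidermal genes at its head. Of these, 34 were on a follicle list (123 members measured), 25 of the 34 in the hair shaft lists, 8 in the sheath lists and 1 in the pigment list. Another 14 belonged to the epidermis and sebaceous gland, 8 to the dermal matrix (29 measured), 6 to the ribosomal proteins (19), 4 to fat (18) and 3 to skeletal muscle (38). No measured immune, endothelial, smooth muscle, Schwann or red cell list member was among them. Only 6 of the 14 listed red cell genes were measured. In all 69 were on a list and 89 were named genes on no list, the remaining 5 being unnamed. On each array alone the brightest 1% was much the same, with 142 genes shared by all 3 arrays and 188 found in at least 1.

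Col3a1, a fibrillar collagen of young dermis, was the brightest gene at 14.33 on all 3 arrays, which means that it held the same rank on each. The gene model Gm9794, on no list, had rank 2 by the mean, at 14.25, 14.16 and 14.25. Among genes of the follicle, Krt25 (14.06, 14.12 and 14.14) and Krt71 (13.95, 14.13 and 14.06), a type I and a type II keratin of the inner root sheath, were near the top. Prr9, a proline-rich protein gene listed here with the hair shaft, read 14.13, 14.06 and 14.03. These genes differed between arrays by at most 0.18.

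Krt10, the filament keratin of cells that have left the basal layer, read 14.03, 13.95 and 13.99. The brightest hair shaft keratin was Krt33a at 13.93, 13.69 and 13.74, followed in the shaft by the trichocyte keratin Krt35 at 13.11, 13.05 and 13.24. The fatty acid carrier Fabp4 read 13.71, 13.73 and 13.79, and Acta1, the actin of skeletal muscle, 13.36, 13.87 and 13.09. Acta1 was the least even of these, highest in replicate 2 and lowest in replicate 3. Genes of the brightest 30 that every cell uses were Actb (13.94), the translation factor Eif5a (13.78), the mitochondrial genes Cox6a1 (13.50), Atp5g3 (13.47) and Chchd2 (13.56), and the ribosomal protein genes Rpl26 (14.19), Rpl4 (14.08) and Rps9 (13.70).

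**Figure D1:**
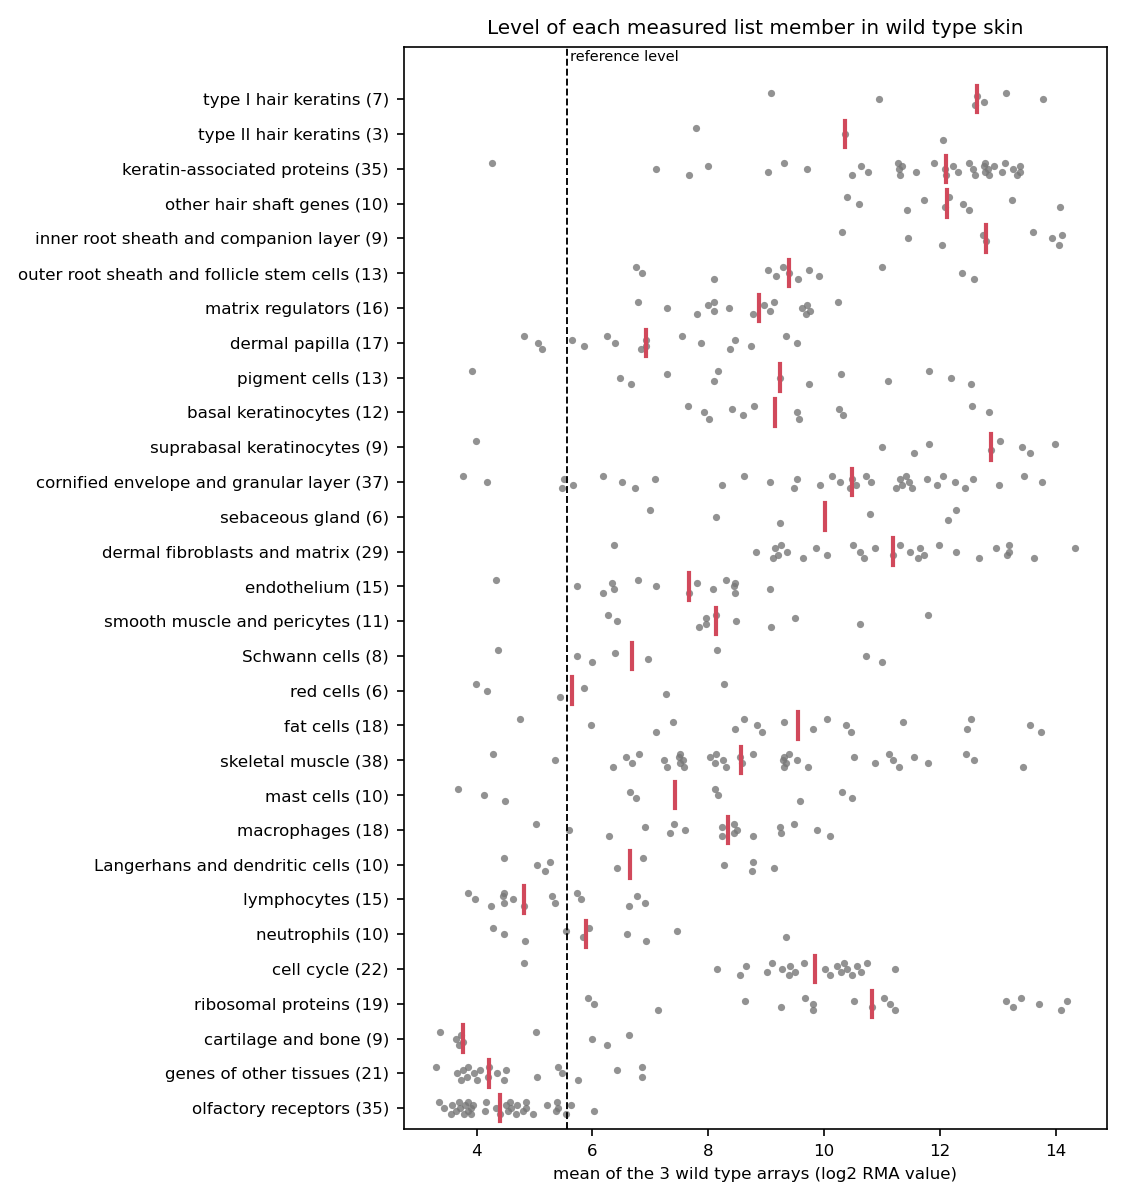
Mean log2 RMA value of the 3 wild type arrays (horizontal axis) for every measured member of each list, 1 grey point per gene, with the number of measured members in brackets, the list median as a red bar and the mean reference level as a dashed line. Inner root sheath, suprabasal and type I hair keratin lists have the highest medians (12.80, 12.88 and 12.63), and the lymphocyte and cartilage lists lie mostly left of the dashed line.

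Many of the brightest genes lay side by side in the genome. Of 158 that could be placed in gene order, 37 (23.4%) were next to another of them, while 1.85% of all 15617 placed genes were next to one. The longest run held 14 genes, reaching from Krtap14 to Krtap6-5 and including the gene models Gm10229 and Gm10228. Runs of 5 (Krtap17-1, Krt33a, Krt33b, Krt34 and Krt31) and of 4 (Krt25, Krt26, Krt27 and Krt10) followed. Shorter runs joined S100a14, S100a16 and S100a3, and Sbsn, Dmkn and Krtdap. Krtap genes resemble each other closely, and probes may read more than 1 of them.

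A letter pattern that the ranking did not use was more frequent in the promoters of these genes than in all promoters, though most lacked it. The motif searched was TATAAA, on the gene's own strand, with its first base 40 to 20 bases before the annotated start, in RefSeq promoters of GRCm38.p6 that ran from 250 bases before to 50 after the start. It was found in 24 of 122 brightest genes with a promoter in the table (19.7%), against 364 of all 12480 (2.92%). Anywhere in the window and on either strand the shares were 37.7% and 11.4%. By list, it was present in 19 of 33 keratin-associated protein genes (57.6%), 14 of 34 cornified envelope genes (41.2%), 4 of 9 inner root sheath genes, 4 of 10 other shaft genes, 3 of 5 type I hair keratins and 5 of 30 skeletal muscle genes (16.7%). None of 12 fat, 18 cell cycle or 15 ribosomal protein promoters held it in that position, and 1 of 18 dermal promoters did. Neither of the 2 type II hair keratin promoters held it, while 2 of 9 mast cell genes (22.2%) and 3 of 17 genes of other tissues (17.6%) did, so it was not limited to bright genes. A match describes the letters only and does not show that a factor binds there.

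The 60 bases before the start are printed for genes that lead the brightest genes or the differences between arrays, from 5′ to 3′ on the gene's strand in GRCm38.p6, with TATAAA in capitals. Rpl26 is shown as a bright gene with no match. In Sprr1a the match begins at -43, just outside the searched positions, and in Krt71 at -40, on their edge.
Krt25, chr11:99322952-99323011, minus strand: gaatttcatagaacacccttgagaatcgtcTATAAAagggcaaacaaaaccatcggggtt
Krt71, chr15:101743098-101743157, minus strand: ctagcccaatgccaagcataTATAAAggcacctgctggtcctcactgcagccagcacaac
Krt10, chr11:99389365-99389424, minus strand: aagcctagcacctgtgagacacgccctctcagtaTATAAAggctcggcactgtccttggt
Prr9, chr3:92123948-92124007, minus strand: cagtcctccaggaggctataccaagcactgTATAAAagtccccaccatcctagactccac
Sprr1a, chr3:92485882-92485941, minus strand: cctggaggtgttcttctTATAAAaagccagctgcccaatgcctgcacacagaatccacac
Krtap4-6, chr11:99665961-99666020, minus strand: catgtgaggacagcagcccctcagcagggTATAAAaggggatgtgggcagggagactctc
Krtap6-5, chr16:89047900-89047959, minus strand: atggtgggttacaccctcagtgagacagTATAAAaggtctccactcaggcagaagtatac
Myh4, chr11:67237752-67237811, plus strand: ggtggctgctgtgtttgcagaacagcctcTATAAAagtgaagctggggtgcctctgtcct
Fos, chr12:85473830-85473889, plus strand: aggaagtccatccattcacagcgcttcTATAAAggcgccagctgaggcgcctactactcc
Rpl26, chr11:68901506-68901565, plus strand: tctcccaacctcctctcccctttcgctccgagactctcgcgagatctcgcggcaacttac

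Hair shaft genes filled the upper end of the profile. All 7 measured type I hair keratins lay above the reference level, with a median percentile of 99.4 among all genes, and 5 were in the brightest 1%. Krt34 read 12.98, 12.57 and 12.75, Krt33b 12.93, 12.37 and 12.59, and Krt31 12.73, 12.44 and 12.64. These 3 cortical keratins were highest in replicate 1 and lowest in replicate 2. Krt32, a keratin of the hair cuticle, had a mean of 10.94, and Krt36 was the lowest type I member at 9.08. The 3 measured type II hair keratins, their filament partners, were Krt86 (12.50, 11.66 and 11.99), the cuticle keratin Krt82 (10.36, 10.28 and 10.47) and Krt84 (8.11, 7.72 and 7.54). Krt86 was the only one of them in the top 5%.

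Of 35 measured keratin-associated protein genes, 34 lay above the reference level and 16 were in the brightest 1%. Krtap22-2 read 13.66, 13.13 and 13.35, Krtap6-5 13.62, 13.11 and 13.40, and Krtap15 13.46, 13.20 and 13.30. Replicate 1 was highest and replicate 2 lowest in each. Krtap13 alone was under the reference level, at 4.16, 4.27 and 4.37, although its neighbour in name Krtap13-1 had a mean of 12.78. Among 10 other shaft genes, all above the reference, S100a3, a calcium-binding protein of the hair cuticle, had a mean of 13.23, the aminopeptidase Lap3 12.51, the metallothionein Mt4 12.40 and Padi3, which turns arginine into citrulline in shaft and sheath proteins, 12.16.

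The inner root sheath genes were among the brightest. All 9 measured inner root sheath and companion layer genes were above the reference level, 6 of them in the brightest 1%, with a median percentile of 99.5. Krt27 read 13.91, 13.93 and 13.95, and trichohyalin (Tchh) 13.63, 13.56 and 13.62. The companion layer keratin Krt75 had a mean of 12.04, and Gata3, a transcription factor of the inner root sheath, 10.30. In the outer root sheath and stem cell list all 13 members were above the reference, led by Krt15 (12.59), Krt17 (12.38) and Krt6a (10.99). Cd34 (9.91), Lgr5 (9.39), Lhx2 (9.29) and Sox9 (9.03) of the same list lay between the median and the top 10% of all genes. Which cells of the skin gave these signals was not tested.

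Regulators and the signalling centre of the follicle were lower, as the probe sets read them. All 16 measured matrix regulators were above the reference, with a median percentile of 74.7 and none in the top 5%. Msx2, a homeobox factor of the hair matrix, read 10.39, 10.15 and 10.20, and Hoxc13, a homeobox regulator of hair keratin genes, 9.63, 9.81 and 9.83. Foxn1, the factor lost in nude mice and another of these regulators, read 8.22, 8.01 and 8.08. Edar, the lowest of them at 6.79, read near the value of albumin, so its expression is not shown by level alone. Of 17 dermal papilla genes, 14 were above the reference (73% over all genes), with a median percentile of 42.8. Their median level was 6.92, near the value of albumin, so expression of the lower members is not shown by level alone. The matrix proteoglycan Vcan (9.53), the WNT inhibitor Wif1 (9.35) and Sox18 (8.73) were the highest dermal papilla genes. Sox2 (5.14), Fgf10 (5.07) and the BMP inhibitor Nog (4.81) were under the reference on every array.

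Some pigment genes were bright, and 12 of 13 were above the reference (73% over all genes). The melanin enzyme gene Dct read 12.45, 12.63 and 12.54, the melanosome fibril gene Pmel 12.09, 12.33 and 12.13, and Tyrp1, which encodes another enzyme of the pathway, had a mean of 11.80. All 3 were highest in replicate 2, and the list range was 0.11. Tyr, whose enzyme starts melanin synthesis, had a mean of 9.73 and the regulator Mitf 7.28, while Mlph was listed at 3.92, under the reference.

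In the epidermis, the suprabasal and cornified genes were brighter than most basal ones. Of 12 basal genes, which encode keratins and anchoring proteins, all were above the reference, and 2, Krt5 and Krt14, were in the brightest 1%. Below them came Col17a1 (10.32), Itga6 (10.25) and the master regulator Trp63 (9.26, 9.78 and 9.56). Among 9 suprabasal genes, 8 were in the top 5%, among them Krt1 (13.55, 13.58 and 13.55), Lgals7 (13.41), Krtdap (13.03) and Sbsn (12.88). Krt2, a keratin of the upper epidermis, was the exception and lay under the reference at 3.98, 3.97 and 4.04.

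Of 37 cornified envelope and granular layer genes, 33 were above the reference on all 3 arrays and 6 were in the brightest 1%. The precursor protein genes Sprr1a (13.76), Crct1 (13.45) and Lor (13.02) led, followed by the protease gene Asprv1 (12.58), filaggrin (Flg, 12.43) and the protease Klk7 (12.26). Sprr2i (4.19) and Sprr2f (3.77) were under the reference on every array. Of the late cornified envelope genes, Lce1a2 (11.95) and Lce1c (11.78) were highest and Lce3a (5.51) lowest. All 6 measured sebaceous genes were above the reference, with Krt79 at 12.28, the desaturase Scd1 at 12.03, 12.39 and 11.98, and Elovl3, which lengthens fatty acids, at 10.80. Scd1 is also made by fat cells.

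All 29 dermal matrix genes were above the reference, with a median percentile of 96.6 and 8 in the brightest 1%. Besides Col3a1 these were Col1a2 (13.62), Col1a1 (13.20), Sparc (13.19), Postn (13.16), Dcn (12.97), Lum (12.68) and Col6a3 (12.27). Elastin (Eln) was lower at 9.86. Dlk1, a signalling protein of young mesenchyme, was the least even at 9.26, 9.61 and 8.88, highest in replicate 2 and lowest in replicate 3. Fmod (6.38) was the lowest member, at a value that does not show expression.

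Vessel and nerve genes lay nearer the middle of the scale. Of 15 endothelial genes, 13 were above the reference (73% over all genes), led by the junction gene Cldn5 (9.07), Eng (8.47) and Pecam1 (8.46). The lymphatic factor Prox1 was under the reference at 4.34. All 11 smooth muscle and pericyte genes were above it, led by Acta2 (11.79) and Tagln (10.62). Of 8 Schwann cell genes 7 were above it (73% over all genes). Pmp22 (11.00) and Egr2 (10.73), both made by other skin cells too, led Mbp (8.33, 8.51 and 7.62). Mbp, a myelin protein gene, was lowest in replicate 3. Of 14 listed red cell genes only 6 were measured, so the level of the others is not known. Alas2 (8.27), Slc4a1 (7.27) and Hba-x (5.85) were above the reference. Hba-x read below albumin, so its expression is not shown by level alone.

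Several fat cell genes were bright, with 17 of 18 above the reference (73% over all genes) and 4 in the brightest 1%. Car3, a carbonic anhydrase of fat and muscle, read 13.34, 13.71 and 13.59, the adipokine Adipoq 12.33, 12.66 and 12.62, and the lipase Lpl 12.21, 12.56 and 12.62. Replicate 1 was lowest in all 3, and in 14 of the 18 list members, against 35.1% of all 12299 genes above the reference on at least 1 array. The list mean was 9.52, 9.72 and 9.71. Ucp1, the uncoupling protein of brown fat, was under the reference (4.62, 4.77 and 4.84), while Cidea, a lipid droplet protein that brown fat and sebaceous cells share, had a mean of 10.37.

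Some skeletal muscle genes were high as well. Of 38, 36 were above the reference on all 3 arrays (73% over all genes), and 3 were in the brightest 1%. Besides Acta1 these were the fast-fibre genes Tnnc2 (12.61, 13.06 and 12.09) and Mylpf (12.36, 12.95 and 12.05). Among the myosin heavy chains, the perinatal Myh8 had a mean of 11.55 ± 0.50 (SD, n = 3), the fast Myh1 11.29 ± 0.24, the embryonic Myh3 8.11 ± 0.28, the fast Myh2 7.57 ± 0.42 and Myh4 7.57 ± 1.47. The slow Myh7 was under the reference at 4.28. Values of different chains depend on their probes, and this order is rough.

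Genes of resident immune cells were found at middle levels. The mast cell proteases Cpa3, at 10.43, 10.56 and 10.44, and Cma1, at 10.30, 10.63 and 10.01, were the highest of them, with Mcpt4 at 9.62, 9.76 and 9.38. Fcer1a, Ms4a2 and Tph1 of the same list were under the reference on every array, and 7 of 10 members were above it (73% over all genes). Of 18 macrophage genes, 16 were above it on all 3 arrays (73% over all genes). The transglutaminase F13a1 (10.10), Pf4 (9.88), Lyz2 (9.47) and the growth factor receptor Csf1r (9.25) led them.

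Of 10 Langerhans and dendritic cell genes, 6 were above the reference, against 73% of all genes. They comprised the class II genes Cd74 (9.36, 9.08 and 8.97), H2-Eb1 (8.99, 8.78 and 8.57), H2-Aa (8.98, 8.69 and 8.59) and H2-Ab1 (8.43, 8.26 and 8.13), the Langerhans lectin Cd207 (7.04, 6.75 and 6.85) and Flt3 (6.42). The class II genes were highest in replicate 1 and lowest in replicate 3. Cd207 read near the value of albumin and Flt3 below it, so expression of neither is shown by level alone. Of 15 lymphocyte genes, 5 were above the reference (73% over all genes), led by the T cell receptor chains Cd3g (6.90), Cd3e (6.77) and Cd3d (6.63). These lie near the value of albumin, so expression is not shown by level alone. The B cell genes Ms4a1 (3.98), Pax5 (4.47) and Cd79b (4.62) were under the reference. In the neutrophil list, 6 of 10 were above it (73% over all genes). S100a8 (9.33), which keratinocytes make too, was far above Camp (7.47), while Mpo (4.28) was under the reference.

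Of 22 cell cycle genes, 21 were above the reference (73% over all genes), with a median percentile of 87.8. The mitotic activator Cdc20 had a mean of 11.23, the ribonucleotide reductase subunits Rrm2 10.74 and Rrm1 10.63, and Tyms alone was under the reference (4.82). Of 9 cartilage and bone genes, 3 were above the reference (73% over all genes). They were Acan (6.64), Col9a1 (6.25) and Col2a1 (6.00), all at values below that of albumin.

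The 3 arrays differed little over most genes. Median absolute differences were 0.096 between replicates 1 and 2, 0.091 between 1 and 3 and 0.095 between 2 and 3. Over the 12299 genes above the reference on at least 1 array, the median range (highest minus lowest array) was 0.158 and the 99th percentile 0.868. A range of at least 1, which is 2-fold, was reached by 94 genes (0.764%). Without replicates 1, 2 or 3 the count was 61, 29 or 34, and a pair of arrays cannot have a larger range than all 3. The range fell with level, from a median of 0.20 in the 2460 genes of lowest mean to 0.13 in the 2460 of highest mean, while the share past 1 was 0.610% in the former and 1.02% in the latter. With 1 group of 3 arrays there is no comparison to test, so the ranges are given as a description. The 3 probe sets for 18S ribosomal RNA averaged 8.42, 7.61 and 8.34, and the 24 poly-A spike controls 10.86, 10.06 and 10.98, each of them lowest in replicate 2. The 18 hybridisation spike controls averaged 10.69, 10.49 and 10.72, again all lowest in replicate 2. The part of these control differences in the gene ranges below was not tested.

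**Figure D2:**
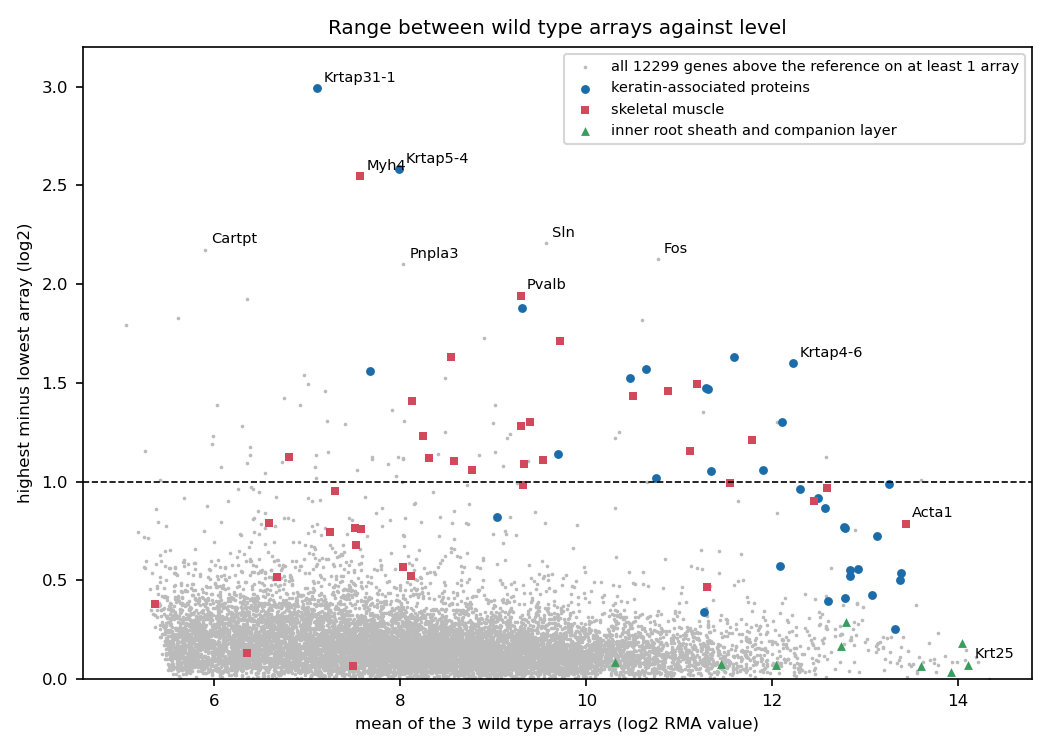
Range between the 3 wild type arrays (highest minus lowest, log2, vertical axis) against the mean log2 RMA value (horizontal axis) for the 12299 genes above the reference level on at least 1 array (grey), with members of 3 lists in colour and the dashed line at a range of 1. Of the keratin-associated protein genes (blue circles) 15 and of the skeletal muscle genes (red squares) 19 lie at or above the dashed line, while inner root sheath genes (green triangles) stay at 0.29 or less.

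The muscle and keratin-associated lists held the largest shares of variable genes. Among the 94 genes, 19 were on the skeletal muscle list, which is 51.4% of its 37 members above the reference on at least 1 array, and 15 on the keratin-associated list, 44.1% of 34. The other 60 comprised 54 named and 6 unnamed genes, and 4 of them, Krt6b, S100a9, Lep and Rpl3l, were on another list.

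Keratin-associated protein genes were highest in replicate 1. The list mean was 11.95, 10.94 and 11.27, a range of 1.01, with replicate 1 highest in 34 of 35 members and replicate 2 lowest in 31. Over all 12299 genes, replicate 1 was highest in 32.1% and replicate 2 lowest in 33.8%. Krtap31-1 had the largest range of any named gene, at 9.06, 6.19 and 6.07, and Krtap5-4 read 9.44, 6.86 and 7.67. Their lowest values do not show expression, so the size and order of these ranges are uncertain. Krtap4-6, far above that level on every array, read 13.08, 11.48 and 12.11, a 3.03-fold difference. Replicate 1 was highest in all 3.

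The spread differed between families. All 5 measured members of family 4 had ranges of 1.30 to 1.60, and the 3 of family 5 ranged by 0.82 to 2.58. The 6 members of family 19, with means of 12.30 to 13.26, had ranges of 0.39 to 0.99, and Krtap13-1, Krtap14, Krtap15 and Krtap26-1 of 0.26 to 0.43. Among hair keratins the means of both lists were highest in replicate 1 and lowest in replicate 2, by less, at 12.27, 11.99 and 12.14 for type I and 10.32, 9.89 and 10.00 for type II. Of 7 type I members 5 had that order at both ends, and of 3 type II members 1, Krt86 (16.9% over all 12299 genes). By the median of the members the list range was 0.493 for type I and 0.191 for type II. The inner root sheath list, at 12.74, 12.78 and 12.82, had its highest mean in replicate 3 and a range of 0.08, or 0.259 by the median of its members. The list ranges of matrix regulators (0.03) and cell cycle genes (0.06) were small as well. Without replicate 1 the range of the keratin-associated list was 0.332. The 2 gene models within the Krtap run, Gm10229 (14.12, 13.11 and 13.56) and Gm10228 (13.21, 12.09 and 12.43), were in no list and showed the same order.

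**Figure D3:**
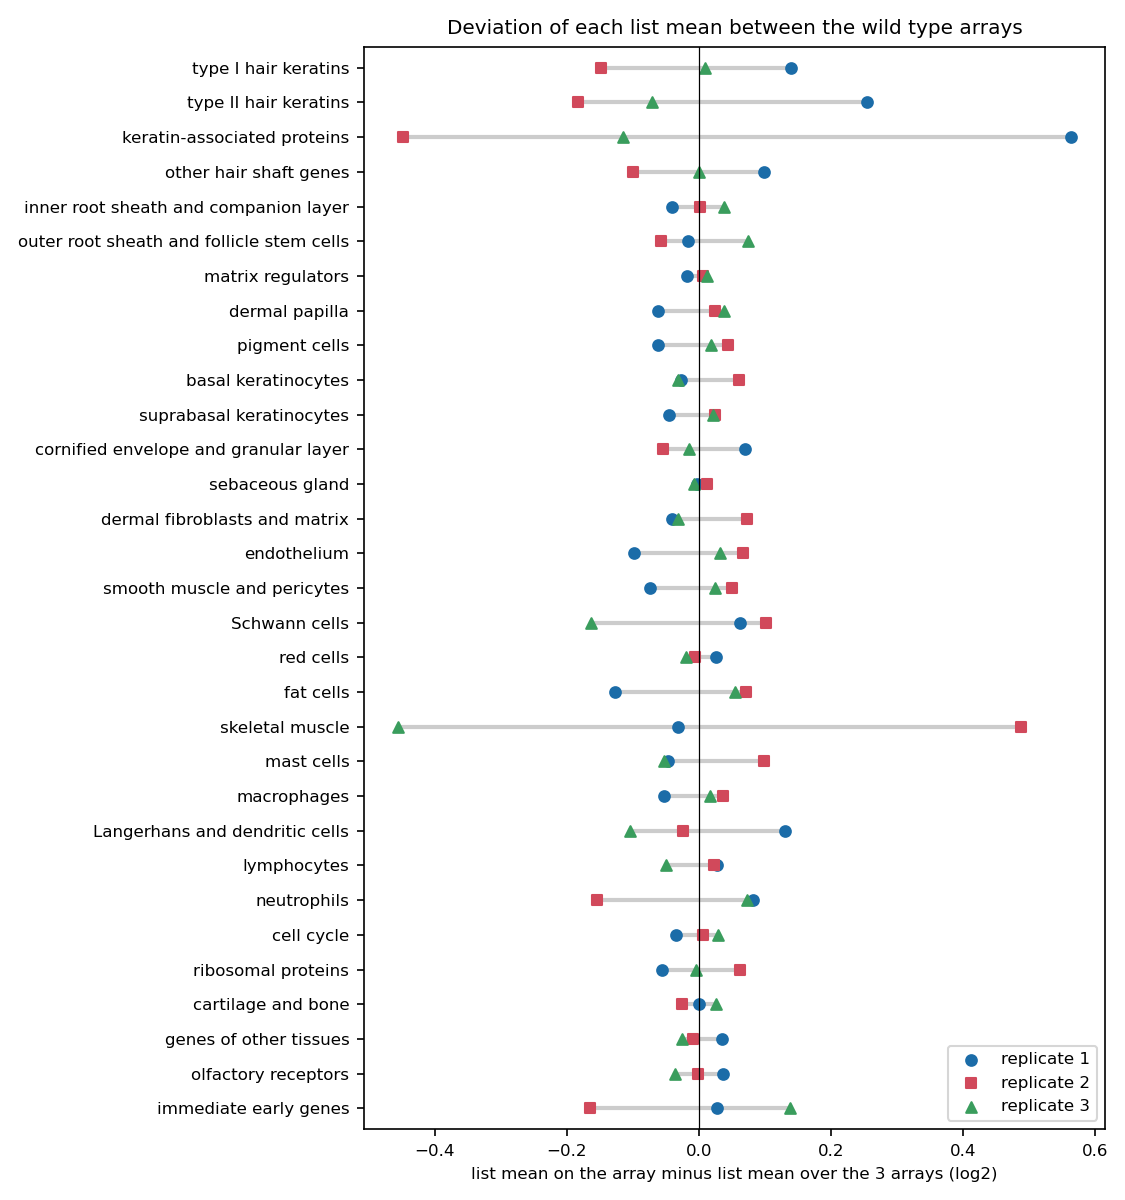
Deviation of each list's mean on each wild type array from its mean over the 3 arrays (log2, horizontal axis), with replicate 1 as blue circles, replicate 2 as red squares and replicate 3 as green triangles. Keratin-associated proteins (range 1.01, highest in replicate 1) and skeletal muscle (range 0.94, highest in replicate 2) have the widest spread. Type II hair keratins are at 0.44, which is 0.113 without replicate 1.

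Skeletal muscle genes were highest in replicate 2 and lowest in replicate 3. The list mean was 8.85, 9.37 and 8.43, a range of 0.94, and 31 of 38 members followed this order at both ends. Over all 12299 genes, 16.3% had that order. Ckm, the muscle creatine kinase, read 11.05, 12.01 and 10.52. Without replicate 2 the list range was 0.425, with replicate 1 then above replicate 3.

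The muscle genes did not all move by the same amount. Myh4, the myosin of the fastest fibres, read 6.72, 9.27 and 6.72. Replicate 2 stood above the others, whose values are too low to show expression, so its fold is not settled. Pvalb, a calcium buffer of fast fibres, read 8.54, 10.48 and 8.86, and Actn3, the actinin of fast fibres, 9.33, 10.76 and 9.05. Replicate 2 was highest in all 3. Aqp4, a water channel in no list here, was above the reference in replicate 2 alone (5.41, 6.61 and 4.78), and is given only because its range was among the 20 largest.

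A few members had another order. The slow troponin Tnni1 (7.49, 7.46 and 7.53) had a range of 0.06, and the embryonic myosin Myh3 (7.98, 7.91 and 8.44) was highest in replicate 3, where most of the list was lowest. The slow genes Tnnt1 (6.29, 6.42 and 6.36), Tnnc1 (6.13, 6.69 and 6.92) and Myh7 read at or near values that do not show expression, so fast and slow fibre genes cannot be compared from them.

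The order replicate 2, then 1, then 3 was shared by 47 of the 94 genes, of which 18 were on the muscle list and 29 were not, and by 16.3% of all 12299 genes. The 29 include Sln (9.85, 10.53 and 8.32), whose peptide restrains the calcium pump of muscle, the intermediate filament gene Des (9.02, 9.60 and 8.45), Myoz1 (9.05, 9.86 and 8.62) and Cox8b (9.26, 9.59 and 8.21), all known from muscle and singled out here after their values were seen. Rpl3l, the muscle form of ribosomal protein L3, was the only one of 19 ribosomal protein genes past a range of 1, at 5.85, 6.80 and 5.42. These values do not show expression, so the size of its range is uncertain. The order replicate 1, then 3, then 2 was shared by 23 genes, 13 of them keratin-associated, and by 16.9% of all 12299.

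**Figure D4:**
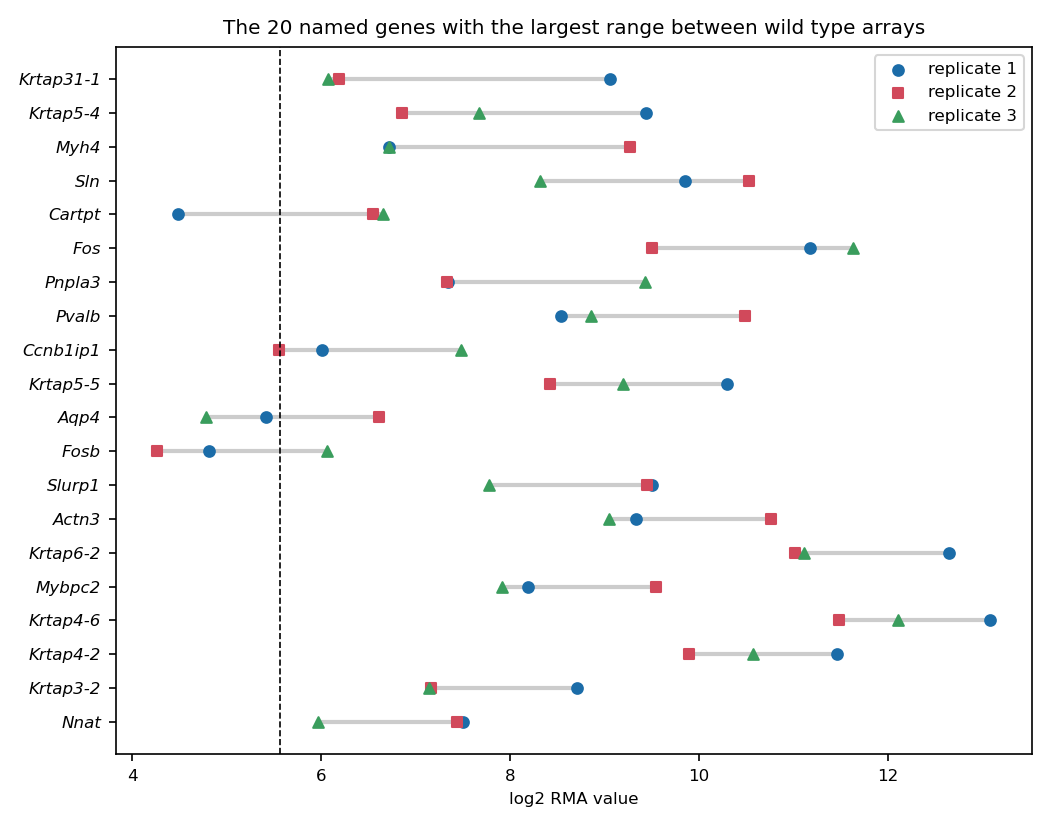
Log2 RMA values (horizontal axis) in replicates 1 (blue circles), 2 (red squares) and 3 (green triangles) of the 20 named genes with the largest range between the wild type arrays, ordered by range, with the mean reference level as a dashed line. The Krtap genes have replicate 1 at the right, Myh4, Pvalb, Actn3 and Mybpc2 have replicate 2 there, and Fos has replicate 2 far to the left.

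Genes outside both lists showed other orders. Fos, an immediate early transcription factor gene, read 11.17, 9.51 and 11.63, so replicate 2 was 4.37-fold below replicate 3. Its relative Fosb read 4.81, 4.27 and 6.06, above the reference in replicate 3 alone. Of 27 immediate early genes, a list added after these values were seen, 16 were lowest in replicate 2, as were 33.8% of all 12299 genes, and 3 had a range of at least 1, the third being Ccn1 (8.64, 7.77 and 9.02). The phosphatase gene Dusp1 (10.55, 9.76 and 10.62) was also lowest there. Others hardly differed or were lowest in another array, such as Junb (8.83, 8.81 and 8.84), Ier2 (10.33, 10.47 and 10.50) and Egr1 (11.38, 11.54 and 11.86).

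Some genes were high in replicate 3. Pnpla3, a lipid droplet protein gene, read 7.34, 7.33 and 9.43, a 4.29-fold difference, and the fat hormone gene Lep 8.30, 8.80 and 9.44. Pfkfb3, a regulator of glycolysis, read 6.61, 7.29 and 7.76. Other fat genes differed in order. Dgat2, which makes triglyceride (10.23, 10.37 and 10.78), and by less Lpl, Cd36, Fabp4 and Pparg were also highest in replicate 3, whereas Adipoq was 12.66 and 12.62 in replicates 2 and 3 and Retn was lowest in replicate 3 (10.21, 10.18 and 9.77). The wound and companion layer keratin Krt6b (6.59, 6.11 and 7.53) and the calcium-binding S100a9 (7.05, 6.16 and 7.54) were highest in replicate 3 and lowest in replicate 2. In contrast, Krt6a (11.03, 10.97 and 10.98) and S100a8 (9.58, 9.15 and 9.27) had replicate 1 highest. The lowest values of Pfkfb3, Krt6b and S100a9 do not show expression, so the size of their ranges is uncertain.

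Others were low in 1 array. Slurp1, a secreted protein of keratinocytes, read 9.50, 9.45 and 7.77, and the imprinted gene Nnat had a mean of 6.97 ± 0.87 (SD, n = 3), both lowest in replicate 3 (Nnat 5.96). The neuropeptide gene Cartpt read 4.48, 6.55 and 6.65, under the reference in replicate 1 only, at values where expression is not shown by level alone. Ccnb1ip1 read 6.01, 5.56 and 7.48 and was highest in replicate 3. The lowest values of Ccnb1ip1 and Nnat do not show expression either. Neighbouring genes were also common among the variable genes. Of 88 that could be placed, 14 (15.9%) were next to another of them, while 1.07% of all placed genes were next to one. TATAAA before the start was found in 19 of 67 (28.4%), against 2.92% of all promoters. The keratin-associated list members of this set are not among the brightest 1%. Even so, the gene models Gm10229 and Gm10228 are in both sets. Related genes are also split between them, such as Krtap6-2 here and Krtap6-1 among the brightest. The shares of both sets are therefore not independent.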

How the data were processed

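RNA of dissected skin was copied with an oligo(dT) primer and amplified once, per the labels' protocols. Control probe sets at the 3′ end minus those at the 5′ end gave 0.36, 0.16 and 0.25 for beta-actin in replicates 1, 2 and 3. For Gapdh they gave -0.34, -0.29 and -0.26. Whether signals favour 3′ ends was not tested. The deposited values are log2 RMA values, as the submitters' processing notes name the method. They give no version of it. RMA subtracts background, gives the arrays a common distribution and summarises the probes of a gene. Arrays have no counts, and no detection calls were used.

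The 64 control rows of 16395 were left out, and 687 probe sets that the platform annotation does not list stay unnamed. Values were ranked by the mean of the 3 wild type arrays, with Python 3.11.15, pandas 2.3.3, numpy 2.4.6 and matplotlib 3.10.9. No test was made, since 1 group was described, and the scripts were tested on simulated data. The 31 lists and the members were chosen with earlier results of these data known, and immediate early genes were added later. Genes were named from the 30 brightest, the 20 with the largest range, all hair keratins and a few markers. In each list the 3 brightest, the most variable and the lowest member could be named too. Not every gene chosen in this way is printed. Other list members and genes past a range of 1 serve as further examples, chosen after their values were seen. Promoters came from RefSeq (GRCm38.p6), and protein sequences were not analysed here. Alternatives were other reference levels, filters, measures of spread, summaries and normalisations, and leaving out each array.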

Additional observations from a re-analysis of the deposited data

How the results depend on the processing

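The count of genes above the reference level was 11117 with the 99th percentile of the olfactory receptors, 9284 with the genes of other tissues as reference, 12103 by the mean of the arrays, and 11947 to 12005 without each replicate. Follicle genes among the brightest 1% numbered 33 to 36 without each replicate, against 34. The count with a range of at least 1 was 29 to 61 without each replicate, where fewer arrays give smaller ranges, and 60 with the skeletal muscle and keratin-associated lists left out, an alternative chosen after seeing the data. It was 98 by a standard deviation over 0.5, 95 without a filter and 85 among genes above the reference on all 3 arrays. Without each replicate the range of the keratin-associated list was 0.332 to 1.01 and that of skeletal muscle 0.425 to 0.944. Taking the median of the members in place of their mean moved 15 of 31 list ranges by more than the SD between arrays, most for ribosomal proteins (0.118 to 0.461), while those of the keratin-associated list (1.30) and skeletal muscle (1.15) stayed the widest of the 31. Centring each array or repeating the quantile normalisation moved no count. Neither could have moved much, since the array medians were equal and the sorted values nearly the same beforehand. No paired analysis was possible because only 1 group was described and no test was made. With 3 arrays, differences between animals, dissection and hybridisation cannot be told apart.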
